A study of Rattus norvegicus with 6 samples.

Results

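The genes described here encode the machinery by which vesicles dock, fuse and empty their content, at synapses and in secretory cells. They were taken from the gene table of a rat RNA-seq experiment by symbol: every row named Syt, Sytl, Stx, Stxbp, Vamp, Cplx, Rab3, Rab27, Scg, Chg, Syn or Sv2 followed only by digits or the letters a, b or c, plus Snap25, Syp and Nsg2. It found 92 of 32883 genes, here called the release genes, of which 83 were detected with 1 count or more and 73 were among the 14352 genes with enough counts to be tested. The spelling also takes in 20 genes of other families (Rab30 to Rab39, 8 secretoglobins and syncoilin). They are kept as a group of their own. Rab3d falls outside the spelling and was read with the other genes of the pathway.

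Vestibular epithelium was compared between 2 groups of male Long-Evans rats, each aged 8 to 9 weeks on reception. The 3 IDPN-4wk rats drank 20 mM 3,3'-iminodipropionitrile (IDPN), a nitrile toxic to hair cells (HCs), in their water for 4 weeks. The 3 control rats drank plain water. Each library held 2 utricles and 6 cristae of 1 animal, so replicates are animals, and the samples are whole tissue with HCs, supporting cells, nerve endings, glia and other cells together. Libraries held from 13358678 to 18561991 counts, and 3 counts corresponded to between 0.155 and 0.216 CPM (counts per 1000000 of the library size after TMM, the unit of all levels given here). In bulk tissue, fewer cells of a type and less RNA per cell cannot be told apart. The tissue carried its defining transcripts: all 8 HC markers examined and all 7 supporting cell markers had counts in all 6 libraries.

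Vesicle fusion is driven by SNARE proteins, which sit on the vesicle (the Vamp family) and on the target membrane (syntaxins and SNAP-25) and zip together. SM proteins and complexins guide this assembly, synaptotagmins couple it to calcium, and Rab3 and Rab27 tether vesicles before fusion. Vestibular HCs release glutamate from ribbon synapses, where otoferlin serves as calcium sensor, while the efferent endings and calyces that contact them carry neuronal synaptic proteins. Granins are the bulk cargo of dense-core granules.

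Among the release genes, 7 were called under every setting tried. The upstream sequences of 6 of them are shown, the exception being Snap25, because 4 of the 6 share a short motif. They are the 250 bases before the annotated start in RefSeq, build GRCr8, which differs from the build used for the counts, and they are written 5′ to 3′ on the strand of the gene. Capitals mark CAGCTG, an E-box that reads the same on both strands. Syt1, Syt6, Nsg2 and Scg5 were lower and Stx11 and Rab3b were higher in IDPN-4wk rats.
Syt1 (chr7:46244214-46244463, minus strand): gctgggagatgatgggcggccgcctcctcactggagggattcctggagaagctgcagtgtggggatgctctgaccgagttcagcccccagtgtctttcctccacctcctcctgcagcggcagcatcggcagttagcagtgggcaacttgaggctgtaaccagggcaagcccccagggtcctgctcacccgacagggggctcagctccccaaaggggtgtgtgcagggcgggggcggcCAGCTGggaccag
Syt6 (chr2:193781226-193781475, plus strand): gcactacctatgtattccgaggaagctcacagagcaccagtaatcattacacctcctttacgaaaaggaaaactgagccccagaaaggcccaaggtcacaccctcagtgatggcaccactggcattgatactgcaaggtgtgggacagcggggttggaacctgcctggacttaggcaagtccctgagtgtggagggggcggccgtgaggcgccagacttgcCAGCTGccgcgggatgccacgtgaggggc
Nsg2 (chr10:16165916-16166165, minus strand): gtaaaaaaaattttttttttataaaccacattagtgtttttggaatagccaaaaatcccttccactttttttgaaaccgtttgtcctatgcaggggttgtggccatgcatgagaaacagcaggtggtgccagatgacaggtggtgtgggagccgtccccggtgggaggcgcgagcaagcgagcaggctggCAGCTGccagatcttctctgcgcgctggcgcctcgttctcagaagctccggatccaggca
Scg5 (chr3:121042796-121043045, minus strand): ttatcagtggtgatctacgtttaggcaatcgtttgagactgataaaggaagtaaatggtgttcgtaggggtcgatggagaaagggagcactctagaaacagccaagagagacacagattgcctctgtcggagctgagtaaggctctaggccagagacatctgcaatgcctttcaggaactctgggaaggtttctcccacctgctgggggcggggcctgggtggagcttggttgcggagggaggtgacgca
Stx11 (chr1:9140220-9140469, minus strand): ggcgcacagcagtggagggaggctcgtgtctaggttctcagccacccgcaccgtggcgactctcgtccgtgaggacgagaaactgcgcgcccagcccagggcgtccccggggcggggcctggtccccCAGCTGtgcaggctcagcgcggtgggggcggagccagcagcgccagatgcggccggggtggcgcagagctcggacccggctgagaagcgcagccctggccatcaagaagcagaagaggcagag
Rab3b (chr5:128858841-128859090, plus strand): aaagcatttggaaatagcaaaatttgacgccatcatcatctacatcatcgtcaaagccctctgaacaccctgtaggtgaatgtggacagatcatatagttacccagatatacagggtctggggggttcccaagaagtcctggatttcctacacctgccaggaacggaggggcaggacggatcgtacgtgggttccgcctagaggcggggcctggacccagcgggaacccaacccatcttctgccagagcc

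Counting the base next to the start as -1, the motif began at -13 in Syt1, -29 in Syt6, -60 in Nsg2 and -123 in Stx11. Scg5 and Rab3b had no CAGCTG in this window. Upstream sequences were at hand for 72 of the 91 symbols, and Snap25 was the downregulated gene without one. CAGCTG was present in 7 of the 10 downregulated release genes with a sequence (Syt1, Syt2, Syt6, Sytl1, Nsg2, Sv2a and Syp), in 1 of 4 upregulated ones and in 5 of 42 that were tested and not called. Over all 27457 upstream sequences of the same length the share was 11.9%. This motif was singled out after 16 motifs had been searched on both strands, so its count is a description with no test. The GC box GGGCGG, found in 32.4% of all upstream sequences, was present in 6 of the 10 downregulated genes and in 25 of the 42 not called. The cAMP response element TGACGT was present in 0 of the 10 and 9 of the 42, against 7.25% of all upstream sequences. A match in these letters is not evidence of a bound factor.

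The release genes were then compared between IDPN-4wk and control animals with edgeR's quasi-likelihood test over all 14352 genes. A gene was called downregulated or upregulated at a Benjamini-Hochberg adjusted p (Padj) under 0.05 with a fold change over 1.5. Of the 73 tested release genes, 11 (15.1%) were downregulated, against 6.62% of all tested genes. Upregulated were 5 (6.85%), against 3.09% of all tested genes. Syt1, Syt6, Snap25, Scg5, Nsg2, Syt3, Syt2, Sv2a, Sytl1, Syp and Chgb were lower, and Stx11, Rab3b, Rab32, Stx1a and Rab33a were higher. In all, 16 were called (21.9%, against 9.71% of all tested genes) and 57 were not. At an adjusted p alone the count was 24 (32.9%, against 19.4%). Without the 20 genes matched by spelling alone, 11 of 62 (17.7%) were downregulated and 3 of 62 (4.84%) upregulated.

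The split between lower and higher calls depended on the scaling of the libraries. When TMM was replaced by the plain library size, 7 release genes were lower and 7 higher, against 5.43% and 5.31% of all tested genes, while the median over all 14352 genes shifted from 0.02 to 0.13 on the log2 scale. Sv2a, Syp, Sytl1 and Chgb then lost their calls, and Syt5 and Cplx1 gained one. In the TMM fit the median of the release genes was -0.11, with 44 genes below 0 and 29 above, against 6780 and 7572 of all tested genes. Control and treated libraries were fully apart in 21 genes that were lower (28.8%, against 19.3% of all tested genes) and in 14 that were higher (19.2%, against 18.5%). The lower ones include Syt15, which reached the count filter through the controls alone and lends no support. Summed over all 92 genes, the level went from 2441, 2447 and 2358 CPM in controls to 2076, 2077 and 2152 CPM in IDPN-4wk libraries. The sum in IDPN-4wk rats was 87.0% of the control mean, and the same sum over every gene of the table was 92.8% of it. The value over every gene is fixed by the TMM scaling and is no measured change.

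**Figure D1:**
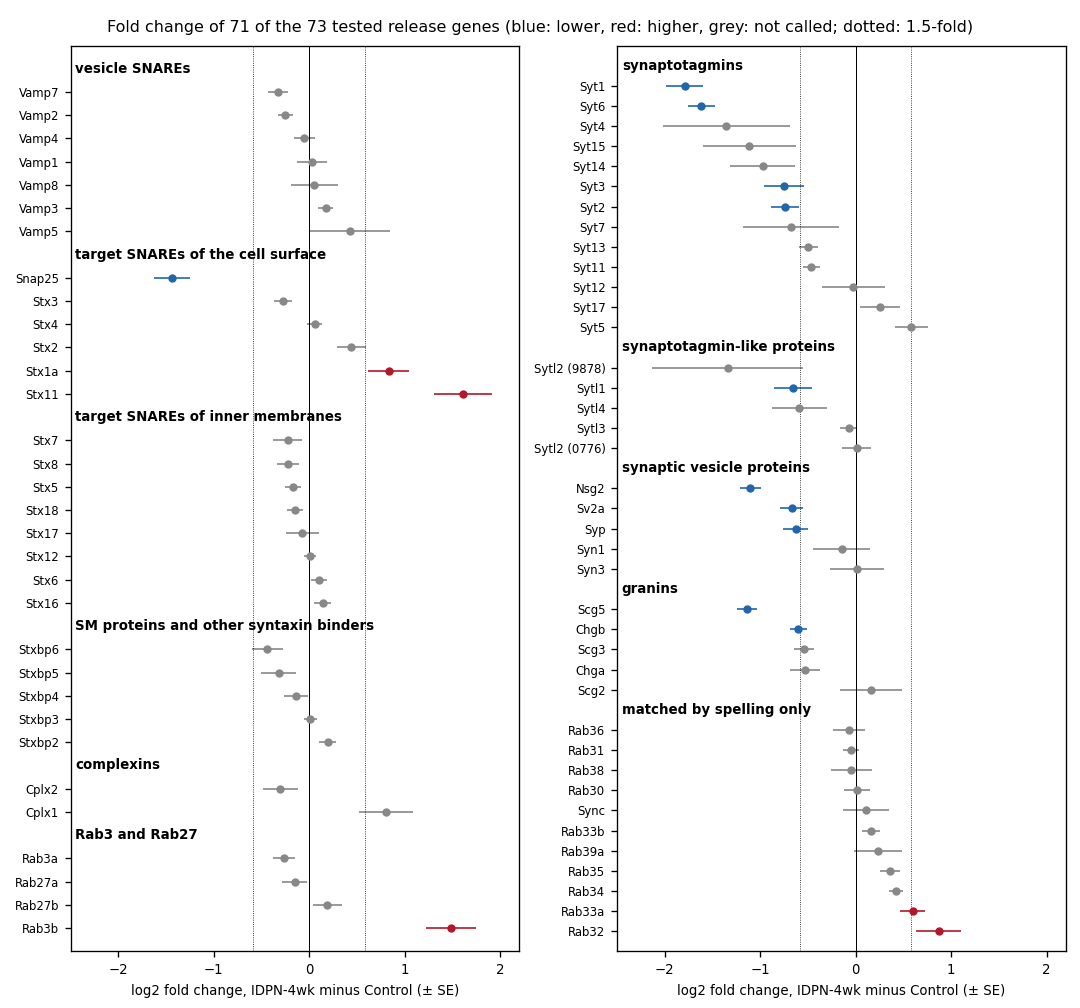
Log2-Fold change (x axis, IDPN-4wk minus control, bars ± SE from edgeR) of 71 of the 73 tested release genes, grouped by role. Points are blue where downregulated, red where upregulated and grey where not called, and dotted lines mark a 1.5-fold change. Downregulated genes reach -1.79 in Syt1, upregulated ones reach 1.61 in Stx11, and the vesicle SNAREs, the SNAREs of inner membranes and the SM proteins hold no called gene.

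Vesicle SNAREs showed no called gene by edgeR or by DESeq2, and 3 of the 7 had an unadjusted p under 0.05, as did 33.1% of all tested genes. All 7 were tested, with log2-Fold changes from -0.32 to 0.42 and a median of 0.03, and their summed level in IDPN-4wk rats was 93.0% of the control mean. Vamp2, the synaptobrevin of synaptic vesicles, was at 178, 168 and 166 CPM in controls and 135, 142 and 154 CPM in IDPN-4wk rats. The groups did not overlap, and the difference passed the adjusted p but was far under 1.5-fold (log2-Fold change -0.25, SE 0.07, Padj 0.0393 by edgeR). Its edgeR Padj was above 0.05 in 5 of the 6 fits that left out a library, with a maximum of 0.145, and was 0.0628 with upper quartile scaling and 0.183 with library size alone. Vamp7, a SNARE of late endosomes and lysosomes, went from 37.0 ± 3.75 to 29.5 ± 1.46 CPM (mean ± SD, n = 3; log2-Fold change -0.32, SE 0.11, Padj 0.0555 by edgeR). Vamp3, which serves recycling endosomes, was at 88.9, 79.3 and 88.3 CPM in controls and 99.3, 92.2 and 97.4 CPM in IDPN-4wk rats, without overlap and without passing the test (log2-Fold change 0.17, SE 0.08, Padj 0.143 by edgeR). Vamp1, the other synaptobrevin, had a log2-Fold change of 0.03, and Vamp4, Vamp5 and Vamp8 overlapped between groups as well.

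Among the target SNAREs of the cell surface, Snap25 fell while Stx11 and Stx1a rose. Snap25 (ENSRNOG00000006037), the partner of syntaxin-1 at synapses, was at 24.6, 21.6 and 22.8 CPM in controls and 9.06, 5.93 and 10.6 CPM in IDPN-4wk rats. Every treated library lay under every control library, at 37.1% of the control mean (log2-Fold change -1.44, SE 0.19, Padj 0.00054 by edgeR). Stx1a (ENSRNOG00000029165), a neuronal syntaxin-1, was at 4.13, 3.49 and 4.39 CPM in controls and 6.18, 7.27 and 7.92 CPM in IDPN-4wk rats (log2-Fold change 0.83, SE 0.21, Padj 0.0202 by edgeR). All 3 treated libraries were higher, but the call was lost in 3 of the 6 fits that left out a library (control 2, IDPN-4wk 2 or IDPN-4wk 3), where Padj reached 0.0715.

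Stx11 (ENSRNOG00000014902), a syntaxin known from granule release by lymphocytes, showed the largest increase of any tested release gene. It was at 1.68, 1.75 and 1.63 CPM in controls and 5.39, 6.55 and 3.48 CPM in IDPN-4wk rats (log2-Fold change 1.61, SE 0.30, Padj 0.00439 by edgeR). The lowest treated library was above the highest control library, and the call was kept in all 6 fits without a library. Of the 7 leukocyte markers tested, C1qb was higher, Cd74 was lower and 5 were not called, and their summed level ranged from 103 to 149 CPM in controls and from 72.7 to 130.0 CPM in IDPN-4wk rats. The part of leukocytes in the Stx11 difference was not tested. Stx3, a syntaxin of ribbon synapses and apical membranes, was at 36.8, 36.3 and 35.2 CPM in controls and 30.7, 31.2 and 27.6 CPM in IDPN-4wk rats, without overlap but with a Padj above the threshold (log2-Fold change -0.28, SE 0.10, Padj 0.068 by edgeR). Stx2 lay higher in all 3 treated libraries without passing (log2-Fold change 0.44, SE 0.15, Padj 0.0659 by edgeR), and Stx4, which serves basolateral membranes, overlapped between groups (log2-Fold change 0.06, SE 0.08, Padj 0.652 by edgeR).

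None of the 8 syntaxins of inner membranes was called. Stx5 and Stx18 act between the endoplasmic reticulum and the Golgi, Stx6 and Stx16 at the trans-Golgi, Stx7, Stx8 and Stx12 in endosomes and Stx17 on autophagosomes. Their log2-Fold changes ran from -0.22 to 0.14, 0 of the 8 had an unadjusted p under 0.05 in edgeR or a call by DESeq2, all 8 overlapped between groups, and their sum went from 460.1, 445 and 425 CPM in controls to 449.7, 441 and 438 CPM in IDPN-4wk libraries. The SM proteins and syntaxin binders likewise held no called gene among 6 by either tool, with an unadjusted p under 0.05 in 2. Stxbp2 (Munc18-2), the SM protein of non-neuronal secretory cells, was at 50.6, 50.2 and 43.7 CPM against 55.7, 54.6 and 54.7 CPM and did not pass (log2-Fold change 0.19, SE 0.09, Padj 0.146 by edgeR). Stxbp3 had a log2-Fold change of 0.01 and Stxbp4 of -0.13. Stxbp5 (tomosyn) and Stxbp6 (amisyn), both inhibitors of SNARE assembly, had values of -0.32 and -0.44, with Padj of 0.254 and 0.0895 in edgeR.

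Complexins clamp and promote the last step of fusion. Of the 4, Cplx1 and Cplx2 were tested and neither was called by edgeR or DESeq2, with an unadjusted p under 0.05 in Cplx1. Cplx1 was at 2.71, 3.91 and 2.12 CPM in controls and 4.60, 5.78 and 4.89 CPM in IDPN-4wk rats, and the groups did not overlap (log2-Fold change 0.81, SE 0.28, Padj 0.0665 by edgeR). This gene passed both thresholds when control 2 was left out (1.07, edgeR Padj 0.0404), and also with library size alone as the scaling. Cplx2 was at 23.2, 28.2 and 15.996 CPM in controls and 18.0, 17.0 and 19.8 CPM in IDPN-4wk rats, with a wide control spread that covered all treated values (log2-Fold change -0.30, SE 0.18, Padj 0.28 by edgeR). Cplx3, known from ribbon synapses of the retina, had 1 count over the controls and 9 over the IDPN-4wk libraries, and Cplx4, of the same kind, was at 0 in all 6.

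The synaptotagmins are the largest family among the release genes. Of 17 members, 13 were tested, 4 were downregulated and 0 upregulated by edgeR and by DESeq2. Over all tested genes edgeR called 6.62% downregulated and 3.09% upregulated. At an unadjusted p under 0.05, 8 were lower and 1, Syt5, was higher, against 17.4% lower and 15.6% higher of all tested genes. The 8 include Syt15, the 1 tested release gene of 73 that reached the cutoff of the count filter in one group alone, the controls, so that its direction was fixed by the filter and it lends no support. With Syt15 included, the log2-Fold changes of the 13 had a median of -0.74. Of these values 11 were below 0, as were 6780 of all 14352 tested genes. The summed level of the family went from 301, 331 and 293 CPM in controls to 186, 192 and 225 CPM in IDPN-4wk libraries, which is 65.2% of the control mean, and the groups did not overlap.

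Syt1 (ENSRNOG00000006426), the calcium sensor of fast release at most synapses, showed the largest decrease of any tested release gene. It was at 14.98, 22.2 and 15.1 CPM in controls and 5.39, 4.80 and 4.96 CPM in IDPN-4wk rats. The 3 treated libraries lay close together, at 28.9% of the control mean, and control 2 stood above the other controls (log2-Fold change -1.79, SE 0.19, Padj 0.000155 by edgeR). Syt6 (ENSRNOG00000019163), of the subfamily that forms disulfide-linked dimers, was at 41.1, 46.3 and 38.4 CPM in controls and 11.6, 12.8 and 16.5 CPM in IDPN-4wk rats. Its highest treated library was far under the lowest control library (log2-Fold change -1.62, SE 0.14, Padj 4.75e-05 by edgeR), and leaving out any library kept the log2-Fold change between -1.78 and -1.53. Syt2, a fast sensor like Syt1, was at 28.1, 28.6 and 21.8 CPM in controls and 13.9, 14.9 and 18.2 CPM in IDPN-4wk rats. All treated values were under all control values (log2-Fold change -0.74, SE 0.15, Padj 0.00613 by edgeR). Syt3, of the same subfamily as Syt6, was at 12.3, 9.16 and 13.2 CPM against 5.39, 8.41 and 6.63 CPM (log2-Fold change -0.75, SE 0.21, Padj 0.0313 by edgeR). The groups lay apart by a small gap, and the call was lost without control 1, control 3, IDPN-4wk 1 or IDPN-4wk 3, with edgeR Padj of at most 0.115 and log2-Fold changes from -0.74 to -0.62.

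Syt11 and Syt13, neither of which is a calcium sensor, passed the adjusted p with fold changes under 1.5. Syt11 was at 92.6, 88.6 and 96.9 CPM in controls and 63.0, 63.1 and 75.3 CPM in IDPN-4wk rats (log2-Fold change -0.47, SE 0.09, Padj 0.00458 by edgeR). Syt13 was at 88.3, 105 and 83.9 CPM against 63.5, 61.1 and 72.5 CPM (log2-Fold change -0.49, SE 0.10, Padj 0.00705 by edgeR). In both genes the groups did not overlap. Syt5 ran the other way, at 6.01, 6.64 and 7.22 CPM in controls and 9.35, 10.7 and 9.66 CPM in IDPN-4wk rats (log2-Fold change 0.58, SE 0.17, Padj 0.0376 by edgeR), just under 1.5-fold, and it was called higher with upper quartile scaling or library size alone. In all 6 fits without a library its edgeR Padj was above 0.05, reaching 0.114. Syt7, the slow sensor with high calcium affinity, overlapped between groups at 1.41 ± 0.747 and 0.893 ± 0.409 CPM (mean ± SD, n = 3; log2-Fold change -0.68, SE 0.50, Padj 0.38 by edgeR). Of the others tested, Syt4, Syt14 and Syt15 had log2-Fold changes of -1.35, -0.97 and -1.11 at low counts, none past the adjusted p, the last of them with its direction fixed by the filter. Syt14 was called lower when IDPN-4wk 3 was left out (-1.29, edgeR Padj 0.0349), and Syt12 and Syt17 had values of -0.02 and 0.26. Syt8, Syt9 and Syt16 were under the count filter, and Syt10 had no count in any library.

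Rab3 and Rab27, the small GTPases of secretory vesicles, included a single called gene among 4 tested, against 9.71% of all tested genes. Rab3b (ENSRNOG00000008001) was at 3.16, 2.66 and 2.05 CPM in controls and 8.56, 5.62 and 7.98 CPM in IDPN-4wk rats. Its lowest treated value was above its highest control value (log2-Fold change 1.48, SE 0.26, Padj 0.00304 by edgeR), and the call was kept in all 6 fits without a library. Rab3a, the form of synaptic vesicles, was at 57.5, 56.1 and 49.2 CPM in controls and 38.6, 51.7 and 44.7 CPM in IDPN-4wk rats, overlapping and without passing the test (log2-Fold change -0.27, SE 0.11, Padj 0.128 by edgeR). Rab27a and Rab27b had log2-Fold changes of -0.15 and 0.19, and Rab3c was under the filter. The synaptotagmin-like proteins are effectors that bind Rab27. Sytl1 was at 14.7, 11.3 and 15.005 CPM in controls and 6.90, 8.15 and 10.9 CPM in IDPN-4wk rats and was downregulated (log2-Fold change -0.66, SE 0.20, Padj 0.0391 by edgeR), but the call was lost in 4 of the 6 fits without a library (control 1, control 3, IDPN-4wk 1 or IDPN-4wk 2), with edgeR Padj of at most 0.130, and also with library size alone. Sytl3 overlapped between groups (log2-Fold change -0.07, SE 0.09, Padj 0.601 by edgeR), and Sytl4 (granuphilin) lay lower in all 3 treated libraries without passing (log2-Fold change -0.59, SE 0.29, Padj 0.178 by edgeR). Sytl2 had rows under a pair of identifiers, with log2-Fold changes of 0.01 and -1.34, neither called, and how reads were divided between the 2 rows is uncertain. Sytl5 had no count.

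Among proteins of the synaptic vesicle membrane and its surroundings, Nsg2, Sv2a and Syp fell, 3 of the 5 tested, against 6.62% of all tested genes. Nsg2 and Syp were in the rule by name. The summed level of the whole group of 7 went from 204, 223 and 198 CPM in controls to 102, 103 and 132 CPM in IDPN-4wk libraries, or 53.9% of the control mean. Nsg2 made up most of that drop, with means of 128 CPM in controls and 59.4 CPM in IDPN-4wk rats. Nsg2 (ENSRNOG00000020644), a neuronal protein of endosomes and vesicles, was at 126, 139 and 119 CPM in controls and 54.1, 54.1 and 70.0 CPM in IDPN-4wk rats. The groups lay far apart, at 46.5% of the control mean (log2-Fold change -1.10, SE 0.11, Padj 9.53e-05 by edgeR). Nsg2 is one of the genes the study singled out partly on these libraries, so its direction is not independent evidence. Sv2a, a glycoprotein carried by synaptic and endocrine vesicles, was at 52.6, 57.1 and 49.5 CPM in controls and 28.3, 32.1 and 39.6 CPM in IDPN-4wk rats (log2-Fold change -0.67, SE 0.12, Padj 0.00362 by edgeR). Syp, synaptophysin, was at 17.0, 17.3 and 18.0 CPM in controls and 12.5, 10.3 and 11.1 CPM in IDPN-4wk rats (log2-Fold change -0.63, SE 0.13, Padj 0.00802 by edgeR). Both were without overlap, and each lost its call when 1 treated library was left out, Sv2a without IDPN-4wk 1 and Syp without IDPN-4wk 2, where the log2-Fold change was -0.57 in each and thus under 1.5-fold. Both calls were also lost with library size alone. The synapsins tie vesicles to the cytoskeleton of nerve terminals. Syn1 and Syn3 overlapped between groups, with log2-Fold changes of -0.15 and 0.02, and Syn2 and Sv2c were under the count filter in this fit.

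The granins and their helpers had 2 downregulated genes among 5, against 6.62% of all tested genes. By the adjusted p alone 4 of the 5 passed, all lower, against 19.4% of all tested genes in either direction. Their summed level went from 227, 258 and 238 CPM in controls to 140.3, 138 and 153 CPM in IDPN-4wk libraries, which is 59.6% of the control mean. A large part of that drop was Scg5, with means of 91.8 and 41.6 CPM against summed means of 241 and 144 CPM. Scg5 (ENSRNOG00000007542), the chaperone 7B2 of a prohormone convertase, was at 78.7, 96.3 and 100.4 CPM in controls and 42.8, 38.3 and 43.7 CPM in IDPN-4wk rats. The treated libraries lay close together, at 45.3% of the control mean, under all controls (log2-Fold change -1.14, SE 0.10, Padj 5.91e-05 by edgeR). Chgb (ENSRNOG00000021269), chromogranin B, was at 64.3, 76.1 and 64.8 CPM in controls and 45.4, 45.5 and 44.5 CPM in IDPN-4wk rats. It sat just past the fold threshold with a small spread (log2-Fold change -0.60, SE 0.09, Padj 0.00105 by edgeR), and without control 2 the log2-Fold change was -0.52, under 1.5-fold. The call was lost as well with upper quartile scaling or library size alone. Chgb is also one of the genes that the study singled out partly on these libraries. Chga, chromogranin A, and Scg3, a granin that binds it, passed the adjusted p with fold changes under 1.5, at 69.2% and 68.6% of their control means (edgeR Padj 0.038 and 0.00492). For Chga the Padj was above 0.05 in 5 of the 6 fits without a library, reaching 0.130, and was 0.0662 with library size alone. Both were called lower without IDPN-4wk 3 (log2-Fold changes -0.68 and -0.67), and Scg3 also without control 3 (-0.60). Scg2, secretogranin II, overlapped between groups (log2-Fold change 0.16, SE 0.32, Padj 0.765 by edgeR).

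**Figure D2:**
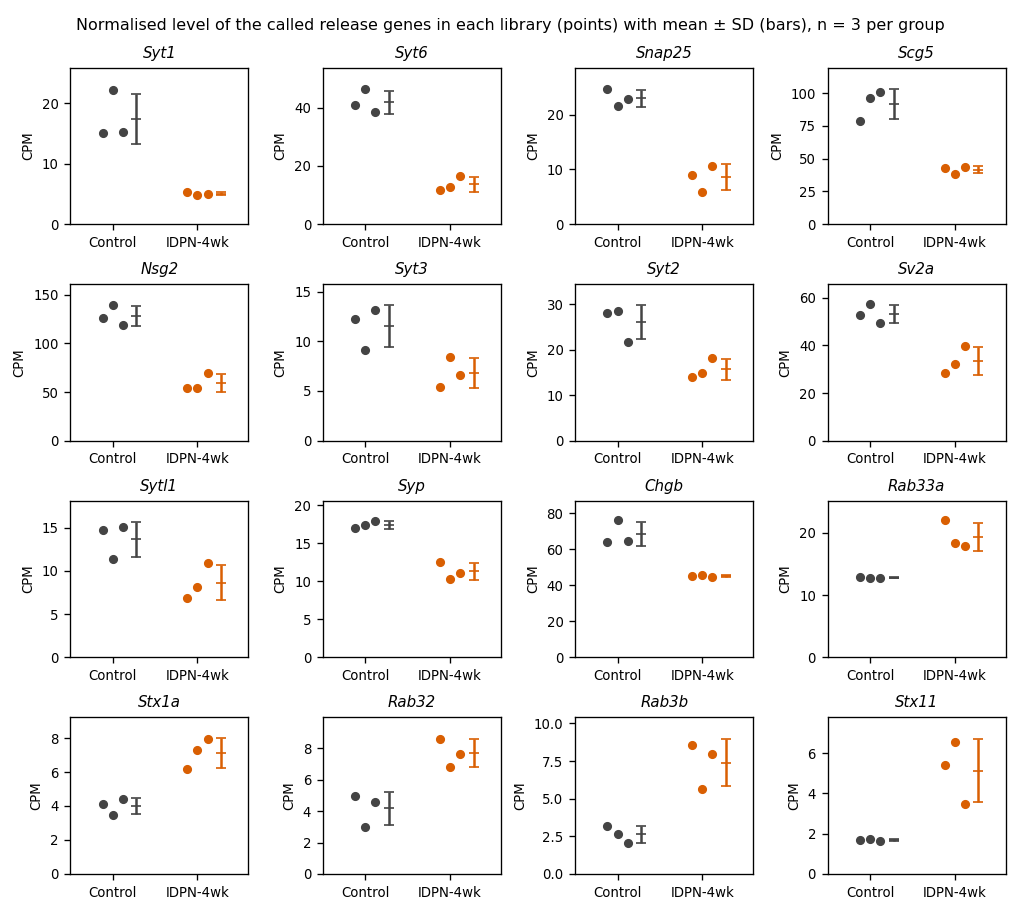
Normalised level (y axis, CPM after TMM, from 0) of the 16 called release genes in each of the 3 control and 3 IDPN-4wk libraries, as points, with the mean ± SD as bars. The groups did not overlap in any of the 16 panels, with wide gaps in Syt1, Syt6, Snap25, Scg5 and Nsg2 and a narrow one in Sytl1 (11.3 CPM in the lowest control, 10.9 CPM in the highest treated library). The 16 genes were selected by a test on these same values, so the gaps are a description and no further evidence.

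The genes matched by spelling alone gave 2 upregulated genes among 11 tested, against 3.09% of all tested genes. Rab32, known from melanosomes and other lysosome-related organelles, was at 4.97, 3.01 and 4.60 CPM in controls and 8.63, 6.81 and 7.66 CPM in IDPN-4wk rats (log2-Fold change 0.87, SE 0.24, Padj 0.0263 by edgeR). All treated libraries were above all controls, but the call was lost without control 2, control 3, IDPN-4wk 1 or IDPN-4wk 3, with edgeR Padj of at most 0.0970. Rab33a was at 12.9, 12.7 and 12.8 CPM in controls and 22.0, 18.4 and 17.8 CPM in IDPN-4wk rats (log2-Fold change 0.60, SE 0.13, Padj 0.00974 by edgeR), with controls that were nearly equal, and its call was lost without IDPN-4wk 1, where the log2-Fold change was 0.49. Rab34 and Rab35 passed the adjusted p with fold changes under 1.5, at 134% and 129% of their control means (edgeR Padj 0.00359 and 0.0302), and for Rab35 the Padj was above 0.05 in 5 of the 6 fits without a library, reaching 0.118. The other 7 tested had log2-Fold changes from -0.07 to 0.24 and were not called. Rab37 and 2 secretoglobins were under the filter, and 6 secretoglobins had no count.

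**Figure D3:**
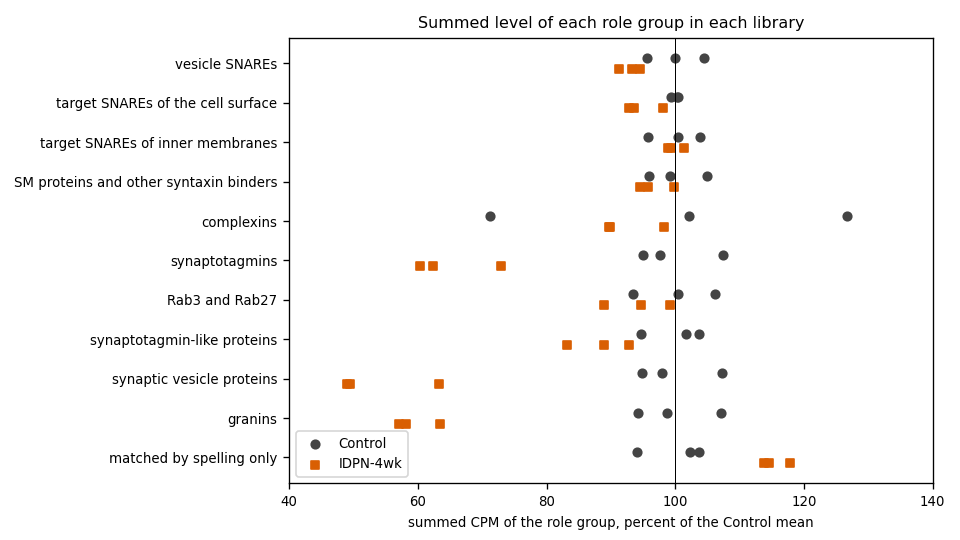
Summed CPM of each role group in each library (x axis, percent of the control mean; circles control, squares IDPN-4wk). The treated libraries lie below all controls for the synaptotagmins (65.2% on average), the synaptic vesicle proteins (53.9%, a drop mostly of Nsg2) and the granins (59.6%). They also do so for the synaptotagmin-like proteins (88.2%), the vesicle SNAREs (93.0%) and the SNAREs of the cell surface (94.8%). The sum over every gene of the table is at 92.8%, a value fixed by the TMM scaling. Treated libraries lie above all controls for the genes matched by spelling alone (115%). Both groups overlap for the SNAREs of inner membranes (99.9%), the SM proteins, the complexins and Rab3 and Rab27.

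The ratio of counts of a pair of genes within a library does not depend on how libraries are scaled. Such ratios were taken for 7 pairs of related release genes, chosen after their values were seen and therefore without a test, and in 6 of them the groups did not overlap. The ratio of Syt1 to Syt2 was 0.533, 0.778 and 0.695 in controls and 0.387, 0.322 and 0.272 in IDPN-4wk rats. Syt6 to Syt13 gave 0.465, 0.439 and 0.457 in controls and 0.183, 0.210 and 0.227 in IDPN-4wk rats. Rab3b to Rab3a was 0.0551, 0.0473 and 0.0417 in controls against 0.222, 0.109 and 0.179 in IDPN-4wk rats. In all 3 pairs the groups were apart, so that Syt1 was lower against Syt2, Syt6 lower against Syt13 and Rab3b higher against Rab3a in every treated animal. Cplx1 was likewise higher against Cplx2, with ratios of 0.117, 0.139 and 0.133 in controls and 0.256, 0.339 and 0.248 in IDPN-4wk rats. Vamp3 to Vamp2 was higher, and Scg5 to Scg3 lower, in all 3 treated libraries. The exception was Chgb to Chga, the pair of chromogranins, which overlapped at 3.64, 3.81 and 4.05 in controls and 4.35, 3.79 and 3.04 in IDPN-4wk rats.

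**Figure D4:**
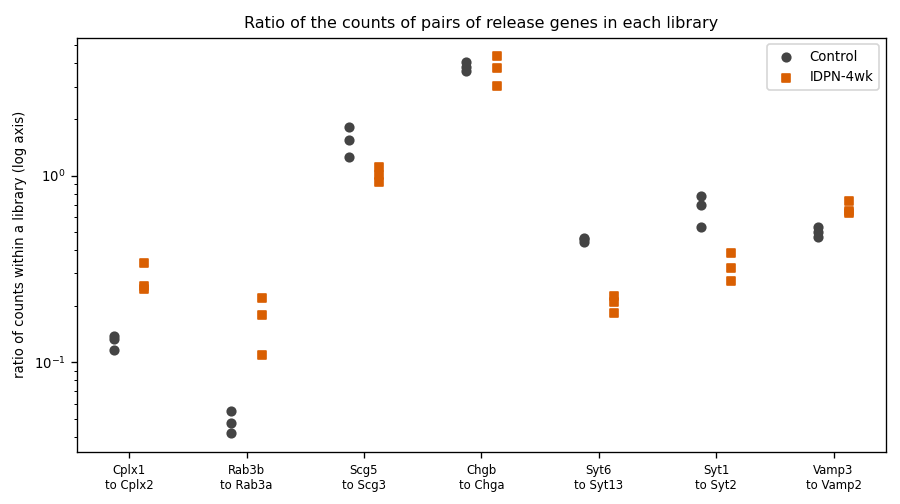
Ratio of the counts of 7 pairs of release genes within each library (y axis, log scale; circles control, squares IDPN-4wk). Controls and treated libraries are apart in 6 pairs and overlap for Chgb to Chga, where the mean ratio was 3.83 in controls and 3.73 in IDPN-4wk rats.

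The rest of the release pathway was read from a list of 69 genes outside the rule, of which 58 were tested. Downregulated were 7 (12.1%, against 6.62% of all tested genes) and upregulated 0 (against 3.09%) by edgeR. Likewise 0 were higher by DESeq2 or by an adjusted p alone, while at an unadjusted p under 0.05 there were 15 lower and 4 higher genes among the 58, against 17.4% lower and 15.6% higher of all tested genes. The median log2-Fold change was -0.10. The 5 with the smallest p were Slc17a8, Otof, Cadps2, Synpr and Ap3b2. Slc17a8, the vesicular glutamate transporter of HCs, was at 53.4, 74.9 and 59.5 CPM in controls and 10.1, 9.39 and 12.4 CPM in IDPN-4wk rats (log2-Fold change -2.56, SE 0.15, Padj 8.48e-06 by edgeR). Otof, otoferlin, was at 908, 905 and 875 CPM in controls and 316, 376 and 488 CPM in IDPN-4wk rats (log2-Fold change -1.19, SE 0.13, Padj 0.000165 by edgeR). In Slc17a8 and Otof no treated library reached a control value, but both were picked by their small p. Other synaptic genes of the list, named after their values were seen, differed. Ctbp2, Bsn and Unc13b overlapped between groups (log2-Fold changes 0.07, -0.30 and -0.10). Pclo and Rimbp2 lay lower without overlap (-0.65 and -0.45), and none of these was called. Synpr, a relative of synaptophysin, had a log2-Fold change of -2.71, and Cadps2, which primes dense-core vesicles, of -1.83. Ap3b2, a subunit of the neuronal adaptor AP-3, was at 59.8% of its control mean (log2-Fold change -0.74, SE 0.13, Padj 0.00235 by edgeR) and belongs to the genes that the study singled out partly on these libraries. The other two calls, named after their values were seen, were Rims2, a scaffold of the active zone (-1.57), and Cadps (-0.91). General fusion factors that act in every cell, Nsf, Napa, Napg and Snap29, also named after their values were seen, had log2-Fold changes from -0.10 to 0.03 and were not called. They do not stand for all uncalled genes of the list. Scamp1 was lower (-0.31), and Scamp4 and Ap3m2 were higher (0.23 and 0.31), each without overlap.

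Markers of the cell types in the tissue moved as well. Of 8 HC markers, 4 were downregulated (Myo7a, Tmc1, Otof and Cdh23), all 8 had log2-Fold changes below 0, with a median of -0.59, and their summed level went from between 1727 and 1862 CPM in controls to between 863 and 1149 CPM in IDPN-4wk rats. Otof, which is also in the list of the wider pathway, made up most of that drop, at 896 ± 18.2 CPM in controls and 393 ± 87.3 CPM in IDPN-4wk rats (SD, n = 3), while Gfi1 was at 94.9% of its control mean. Of 11 neuronal markers tested, 2 were lower (Rbfox3 and Gap43) and 3 higher (Prph, Nefh and Uchl1), with sums from 138 to 148 CPM in controls and from 117 to 124 CPM in IDPN-4wk rats. Supporting cell markers had 2 of 7 lower (Otog and Otogl), with sums from 8032 to 8772 CPM in controls and from 4335 to 5507 CPM in IDPN-4wk rats. Most of that sum was Otog, at 6262 ± 363 CPM in controls and 3199 ± 561 CPM in IDPN-4wk rats (SD, n = 3), while Sox9 and Hes1 were not called and had log2-Fold changes of 0.24 and 0.36. Schwann cell markers had 1 of 8 lower (Pmp22) and 7 of 8 log2-Fold changes below 0, with a median of -0.49 and sums from 9027 to 11311 CPM against 6221 to 9172 CPM. Markers of melanocytes and dark cells had 2 of 7 lower (Kcnq1 and Slc12a2) and 6 of 7 log2-Fold changes below 0, with a median of -0.66 and sums from 1025 to 1319 CPM against 708 to 777 CPM. Of 6 skeletal muscle genes in the table, Myh4 was the only one tested and was higher, at 10.7, 6.71 and 6.44 CPM in controls and 40.5, 71.9 and 62.0 CPM in IDPN-4wk rats (log2-Fold change 2.87, SE 0.24, Padj 3.66e-05 by edgeR). It made up nearly all of their summed level, which was from 7.01 to 11.2 CPM in controls and from 41.6 to 72.8 CPM in IDPN-4wk rats. Ckm was at 0 in all 6 libraries, and Mylpf, Tnnt3, Actn3 and Acta1 had at most 12 counts in any library. The part of a changed share of HCs, or of any other cell type, in the differences of the release genes was not tested. The animal codes of the treated rats also share a prefix that no control has, and what it marks is not given, so that it cannot be told apart from treatment.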

How the data were processed

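Poly(A) RNA of 6 libraries (6 to 11 ng total RNA, oligo-dT priming, 8 and 12 cycles of PCR) was mapped by the authors to Rnor6.0; the submitters' processing notes name STAR 2.5.3a and RSEM 1.3.0. The deposited values are expected counts per gene, all whole as deposited, so that rounding changed none. RSEM divides reads shared between genes, and strand was not kept. Total counts bound the precision (13358678 to 18561991 per library), and floors of 3 counts cover counting error only.

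Groups came from the treatment label. In edgeR 4.0.16 (R 4.3.3), filterByExpr with a minimum count of 10 and a minimum total of 15 chose the genes, TMM scaled the libraries, and glmQLFit with glmQLFTest gave the quasi-likelihood test, with Benjamini-Hochberg adjustment over all 14352 genes. The code was tested on simulated data. DESeq2 1.42.0, other scalings, filters and thresholds, and fits without each library were alternatives. No batch comparison was possible, since the labels give 1 batch. The genes, role groups and lists were chosen with earlier results of these data known. All called release genes are named (2 that were not called are counted but not reported here); of the wider pathway, the 5 calls with the smallest p in each direction. Upstream sequences came from RefSeq (GRCr8).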

Additional observations from a re-analysis of the deposited data

How the results depend on the processing

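The counts of 11 lower and 5 higher release genes, the median of -0.11 and the counts of 7 lower and 0 higher genes of the wider pathway were recomputed under each alternative. DESeq2's Wald test and DESeq2's size factors called the same 11 and 5 genes. Library size alone gave 7 lower genes and a median of -0.00456, and upper quartile scaling gave a median of -0.079. A filter at a mean of 1 CPM gave a median of -0.074. The test against a 1.5-fold change (glmTreat) left 5 lower (Syt6, Scg5, Snap25, Syt1 and Nsg2) and 2 higher genes (Stx11 and Rab3b), and an adjusted p alone gave 8 higher release genes and 13 lower genes of the wider pathway. Without the genes matched by spelling alone there were 3 higher genes and a median of -0.19. Leaving out 1 library at a time gave 9 to 15 lower genes, 3 to 5 higher genes, medians from -0.16 to -0.12 and 6 to 9 lower genes of the wider pathway; these counts include Syn2, Sv2c and 1 row of Sytl2, which passed the filter through the control libraries and are no support for a decrease. The 3 higher genes were found without IDPN-4wk 1 or IDPN-4wk 3, and the cause was not tested. The 7 genes that glmTreat called passed in every alternative run. Of 1019 results for single genes under alternatives, 969 left the gene on the same side of the threshold, 33 lost a call, 17 gained one and 0 called genes changed sign, while genes that were not called could change sign. No paired analysis was possible because the labels give no replicate numbers. Some called genes rest on few counts: Stx11 had 26, 25 and 23 counts in the control libraries and 75, 127 and 54 in the IDPN-4wk libraries, and Rab3b had 49, 38 and 29 against 119, 109 and 124.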

Other observations

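Some release genes fell under the count filter, and 1 of them showed a marked difference in counts. Syn2, a synapsin, had 17, 6 and 18 counts in the control libraries and 3, 0 and 1 in the IDPN-4wk libraries, and when all genes with at least 1 count were tested it was lower with an edgeR Padj of 0.0231. Sv2c, a relative of Sv2a, had 10, 13 and 10 counts against 2, 0 and 7, and did not pass in the same fit (edgeR Padj 0.17). The groups did not overlap in either gene, as in the 19.3% of all tested genes that were lower without overlap. Every IDPN-4wk value of Syn2 was at or under 3 counts, so no fold change is given. Both genes had enough counts only in control libraries, so neither is support for a decrease. Both genes were named after their values were seen. The remaining genes with counts under the filter, Syt8, Syt9, Syt16, Rab3c, Cplx3, Rab37, Scgb1a1 and Scgb1c1, had at most 16 counts over a group and were not called in that fit.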
